A study of Rattus norvegicus with 4 samples.

Results

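The genes that make microRNAs and carry out silencing by them were examined in ribosome footprints of cultured rat myocardial cells. The 10 genes are Drosha, Dgcr8, Xpo5, Dicer1, Tarbp2, Ago1, Ago2, Ago3, Tnrc6a and Tnrc6b, taken by gene symbol from the 31038 rows of the count tables. All 10 had a row under their current symbol and enough counts to be tested. Cells in the siNT group received a control siRNA and cells in the si3m group an siRNA against eIF3m, a subunit of the translation initiation factor eIF3, with 2 libraries per group. The cells of all 4 libraries grew in medium with fetal bovine serum. Before lysis they were treated with cycloheximide, which stalls ribosomes, and no genetic change is labelled in any of them. The sources used here give no siRNA sequence, dose or time after transfection. The cells are labelled NRVM, usually neonatal rat ventricular myocytes, while the growth protocol speaks of embryonic heart. No RNA-seq was analysed here, so each value is footprint abundance, in which less messenger RNA and less translation cannot be told apart.

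MicroRNAs are cut from longer transcripts in 2 steps. In the nucleus the Microprocessor, made of the nuclease Drosha and its RNA-binding partner Dgcr8, releases a hairpin, which exportin 5 (Xpo5) carries to the cytoplasm. There Dicer1, helped by double-stranded RNA-binding partners such as Tarbp2, trims the hairpin to a short duplex, and 1 strand is loaded into an Argonaute protein (Ago1, Ago2 or Ago3). Proteins of the GW182 family, Tnrc6a and Tnrc6b among them, bind the Argonaute and call in enzymes that shorten the poly(A) tail of the target and remove its cap. In the heart this route is known for the control of growth and of contractile gene programmes.

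The siNT libraries held 3924434 (replicate 1) and 3835750 (replicate 2) counts and the si3m libraries 8687598 and 6726969, so depth differed with the group. Eif3m, the targeted gene, had 2136 and 1774 counts under siNT against 1168 and 1232 under si3m, a 3.01-fold fall (log2 fold change -1.59, SE 0.11, edgeR adjusted p = 3.41e-08). Of 18 cardiomyocyte markers, Tnni3, Myl7 and Nppa were at 0 in every library and 8 never exceeded 6 counts. The 18 summed to between 956 and 993 CPM, that is, counts divided by the library total and scaled alike, in siNT and between 591 and 596 in si3m, most of it from the calcium pump gene Atp2a2. Of the 6 tested, 3 fell and 1, Tnnt2, rose (log2 1.25, edgeR adjusted p = 0.00417). The 12 fibroblast markers summed to between 12530 and 12570 CPM in siNT and between 16360 and 16630 in si3m, with Col1a1 and Fn1 the largest. Of the 9 tested, 8 rose and 1, Fn1, fell (log2 -0.16, edgeR adjusted p = 2.62e-04). Tcf21 was at 0 in every library, and Pdgfra, Dcn and Lum reached at most 2.97 CPM. The 6 smooth muscle markers summed to between 3218 and 3239 CPM in siNT and between 3566 and 3572 in si3m, and 1 rose and 1 fell. The 7 endothelial markers summed to at most 5.74 CPM in any library. The 6 macrophage markers summed to between 31.6 and 35.5 CPM in siNT and between 15.4 and 15.8 CPM in si3m. The part of these differences in marker levels in the results below was not tested. Whether replicates are separate cultures is not stated, and the p-values therefore reflect the spread between libraries alone, which may be technical.

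Between the groups, 2 of the 10 genes passed the quasi-likelihood test of edgeR, with p-values adjusted by Benjamini-Hochberg over 12672 genes and a threshold of 0.05. Footprints of Dgcr8 rose 1.47-fold and those of Tnrc6a fell 1.58-fold, while the other 8 did not pass. Over all tested genes 27.8% passed, 14.0% higher and 13.9% lower, so the number among the 10 was near the background. The median log2 fold change was -0.19 over the 10 genes and 0.02 over all tested genes, and the median size regardless of sign was 0.30 and 0.36. The groups did not overlap for 6 of the 10 genes, 1 with si3m above and 5 with si3m below, against 63.9% of all tested genes (32.6% above and 31.3% below). Abundances are given below as CPM scaled by the trimmed mean of M-values (TMM), a scaling that sets the bulk of genes to no change, so a rise or a fall is relative to the other footprints. Levels of different genes were not compared, because coding lengths were not used here.

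**Figure D1:**
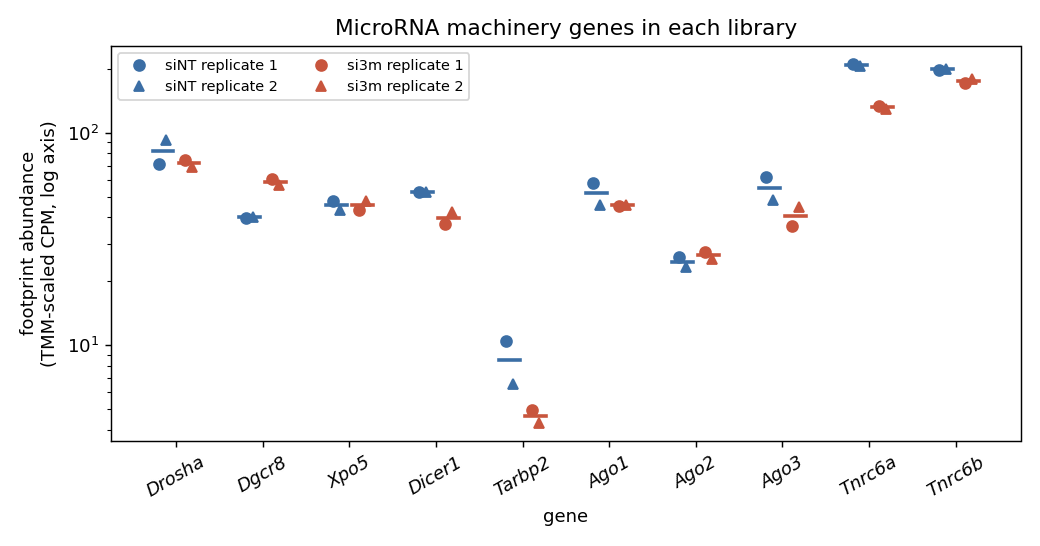
Footprint abundance of the 10 genes in each library, in TMM-scaled CPM on a log axis; points are libraries and short bars are group means of 2. Both si3m points lie above both siNT points for Dgcr8 and below them for Dicer1, Tarbp2, Ago3, Tnrc6a and Tnrc6b.

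Of the Microprocessor pair, Dgcr8 rose and Drosha did not pass, a difference that was not itself tested. Dgcr8, the RNA-binding partner, had 39.8 and 40.1 CPM in siNT and 60.8 and 56.6 CPM in si3m. Both si3m libraries were above both controls, and the controls were nearly the same. The log2 fold change was 0.56 (SE 0.14, edgeR adjusted p = 0.00819). It stayed close in size without si3m replicate 1 (log2 0.51), but the call was lost there (adjusted p = 0.0746).

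Drosha, the nuclease itself, had 71.2 and 92.2 CPM in siNT and 74.7 and 69.0 CPM in si3m. The siNT libraries lay farther apart than the group means, and the groups overlapped. Its log2 fold change of -0.18 (SE 0.13) did not pass (edgeR adjusted p = 0.323), with an unadjusted 95% interval of -0.46 to 0.09. The sign rested on the control chosen, at 0.02 without siNT replicate 2 and -0.35 without siNT replicate 1, where Drosha passed (adjusted p = 0.0391).

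The ratio of Dgcr8 to Drosha counts within a library needs no scaling between libraries. It was 0.559 and 0.435 in siNT against 0.814 and 0.821 in si3m. Both si3m ratios were higher, by 1.66-fold on average of the log values. This pair was outside the planned ratios, and the rise of Dgcr8 by itself raises the ratio. With 2 libraries against 2, an exact permutation test of such a ratio cannot give a two-sided p below 0.333, so none of the ratios here was tested.

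The Dgcr8 gene contains a microRNA hairpin of its own, Mir1306, in the RefSeq annotation of the rat assembly GRCr8. It is shown because it is both a piece of the gene that rose and an example of what the machinery cuts. The hairpin lies at chr11:96213960-96214032 on the plus strand, and capitals mark the arms that become mature microRNAs.
Mir1306: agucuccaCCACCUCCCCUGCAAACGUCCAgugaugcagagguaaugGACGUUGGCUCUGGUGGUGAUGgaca
The Mir1306 row had 0 counts in all 4 libraries. The sources used here do not say how reads that fall on both genes were counted. The other 9 genes overlap no gene with a row of its own in that annotation.

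Export and the cytoplasmic cut came next. Xpo5, the export receptor, had 47.8 and 43.2 CPM in siNT and 43.1 and 48.0 CPM in si3m. The groups overlapped fully and the log2 fold change was -0.00 (SE 0.15, edgeR adjusted p = 0.995). The unadjusted 95% interval, -0.32 to 0.32, leaves room for a change of up to 1.25-fold in either direction.

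Dicer1, the nuclease of the cytoplasmic step, had 52.8 and 52.3 CPM in siNT and 37.2 and 42.4 CPM in si3m. Both si3m libraries were below both controls, but the log2 fold change of -0.40 (SE 0.15) did not pass (edgeR adjusted p = 0.0548). Dicer1 passed in 5 of 14 other settings, with log2 values between -0.49 and -0.30. The smallest fall, -0.30, was without si3m replicate 1.

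Dicer1 messenger RNA is a known target of the miR-103 and miR-107 family, and these rows, named after their values were seen, are given beside it. The mature sequences are printed to show the shared seed (bases 2 to 8, capitals) through which they recognise targets. The first is read from Mir103a2 at chr3:138963278-138963300 (plus strand) and the second from Mir107 at chr1:241750431-241750453 (minus strand), both in GRCr8 from RefSeq.
miR-103-3p: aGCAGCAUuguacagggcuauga
miR-107-3p: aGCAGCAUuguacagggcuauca
Counted from the 5′ end, the sequences differ only by G22C, with the base of miR-103-3p first. Mir103a1 had 404 and 434 counts under siNT against 196 and 110 under si3m, and Mir103a2 had 434 and 440 against 166 and 168. Mir107 had 262 and 228 counts under siNT against 114 and 106 under si3m. All 3 rows fell, with log2 fold changes of -2.38, -2.28 and -2.05 and edgeR adjusted p of at most 4.18e-07. Reads of such near-identical copies cannot be assigned with certainty, and a relation between these rows and Dicer1 was not tested. Of the microRNA genes, which are the products of the machinery and are not translated, 122 of 452 rows had enough counts to be tested. A row with enough counts in 1 group alone could be tested. Among the 122, 80 were lower and 1 was higher, beside 13.9% lower and 14.0% higher over all tested genes. All 452 rows together took 3.17% and 3.25% of the siNT counts, against 1.03% and 1.20% of the si3m counts.

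Tarbp2, a double-stranded RNA-binding partner of Dicer1, was the gene of the 10 with the fewest counts, with 21 and 13 fragments under siNT and 21 and 14 under si3m. A fragment here is 2 deposited counts, since 94.9% to 97.3% of non-zero counts were even in each library. In CPM it had 10.5 and 6.61 in siNT against 4.95 and 4.33 in si3m. The log2 fold change of -0.87 (SE 0.40) did not pass (edgeR adjusted p = 0.119), and its unadjusted 95% interval ran from -1.72 to -0.03. So few fragments give a wide interval. It passed in 2 of 13 other settings, with log2 values from -1.63 to -0.50.

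**Figure D2:**
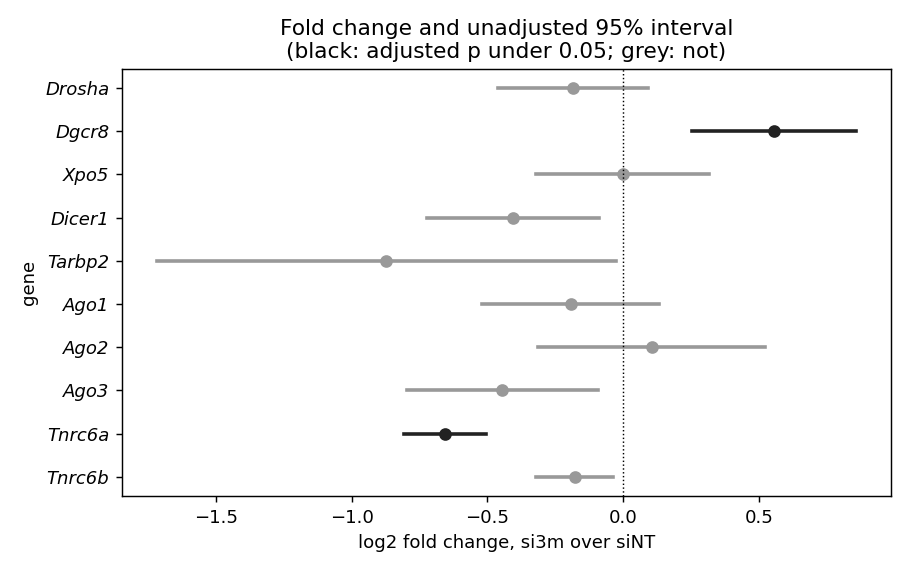
Log2 fold change (si3m over siNT) of the 10 genes with unadjusted 95% intervals from the edgeR fit. Dgcr8 at 0.56 and Tnrc6a at -0.66, in black, passed at an adjusted p under 0.05, and Tarbp2 has the widest interval.

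None of the 3 Argonautes passed. Ago2, the mammalian Argonaute best known for cutting its target, had 25.9 and 23.4 CPM in siNT and 27.6 and 25.4 CPM in si3m, and the groups overlapped. Its log2 fold change was 0.11 (SE 0.20, edgeR adjusted p = 0.738), with an unadjusted 95% interval of -0.31 to 0.52. Ago1 had 58.2 and 45.7 CPM in siNT and 45.2 and 45.8 CPM in si3m. Only siNT replicate 1 stood apart, and the log2 fold change of -0.19 (SE 0.15, adjusted p = 0.382) became -0.00 without that library.

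Ago3, whose gene neighbours Ago1 in GRCr8, was lower in both si3m libraries. It had 61.7 and 48.3 CPM in siNT and 36.3 and 44.9 CPM in si3m, a log2 fold change of -0.45 (SE 0.17). The edgeR adjusted p of 0.0573 missed the threshold. Ago3 passed under 8 of 14 other settings, and its log2 value ranged from -0.61 without siNT replicate 2 to -0.25 without siNT replicate 1.

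Within a library, Ago2 was higher relative to Ago3 in si3m. The ratio of Ago2 to Ago3 counts was 0.419 and 0.484 in siNT against 0.760 and 0.566 in si3m, 1.46-fold higher on average. Ago1 over Ago3 was 0.943 and 0.947 in siNT against 1.25 and 1.02 in si3m, and Ago1 over Ago2 was 2.25 and 1.96 in siNT against 1.64 and 1.80 in si3m. In each of the 3 ratios the groups did not overlap, but the ratios share genes and are not independent. The share of all gene pairs without overlap was not computed, and among single tested genes it was 63.9%. The spread between the si3m libraries was wide for Ago2 over Ago3 and for Ago1 over Ago3. These are ratios of counts and include the unequal lengths of the genes, so only their change between libraries can be read.

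The GW182 scaffolds rested on the most counts of the 10 genes, with at least 392 fragments for each of the pair in every library. Tnrc6a had 211 and 205 CPM in siNT and 134 and 130 CPM in si3m. The gap between groups was far wider than the spread within them, at 208 ± 4.11 CPM against 132 ± 2.93 CPM (SD, n = 2 each). The log2 fold change was -0.66 (SE 0.071, edgeR adjusted p = 4.29e-06), and Tnrc6a passed in all 14 other settings, with log2 values from -0.74 to -0.60.

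Tnrc6b, its paralog, had 197 and 199 CPM in siNT and 172 and 179 CPM in si3m. Both si3m libraries were below the controls. The log2 fold change of -0.18 (SE 0.067) did not pass (edgeR adjusted p = 0.0597), and it passed in 4 of 14 other settings. The ratio of Tnrc6b to Tnrc6a counts was 0.936 and 0.973 in siNT against 1.29 and 1.38 in si3m, 1.39-fold higher in si3m with no overlap.

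**Figure D3:**
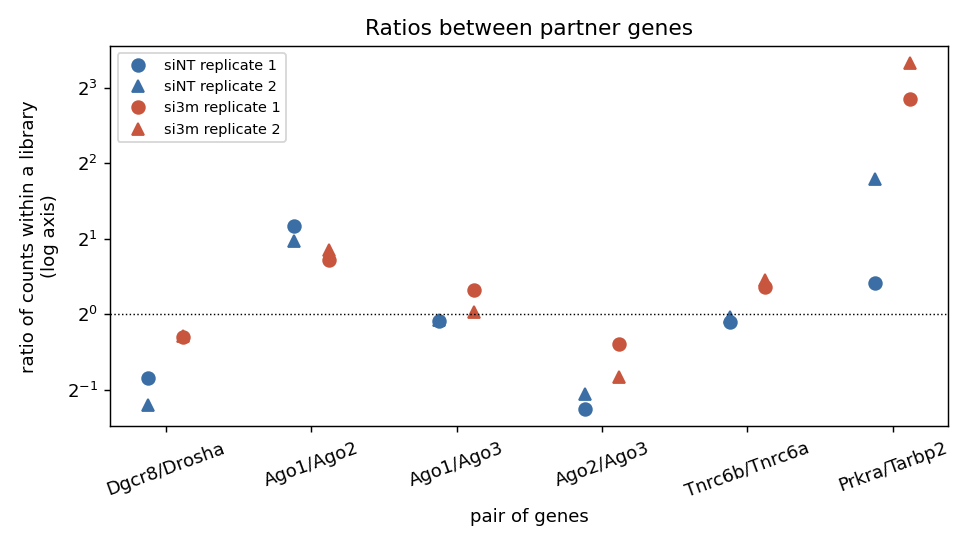
Ratio of counts of 2 partner genes within each library, on a log axis; blue points are siNT and red points si3m libraries. Each pair shown has no overlap between groups, with Dgcr8/Drosha, Tnrc6b/Tnrc6a and Prkra/Tarbp2 higher in si3m and Ago1/Ago2 lower. Of the pairs not shown, Tnrc6c/Tnrc6a overlapped, while Tnrc6b/Tnrc6c and Prkra/Dicer1 did not. Only the Argonaute pairs and Tnrc6b/Tnrc6a were planned. The share of all gene pairs without overlap was not computed.

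Genes that work with these 10 were read from a list of 77, of which 76 had a row, 3 of them under an older symbol, and 74 were tested. In this list 5 rose and 17 fell, together 29.7% of those tested, beside 27.8% over all tested genes, and the median log2 fold change was -0.09. Without si3m replicate 1 the list had 9 falls, and without si3m replicate 2 it had 10, while the falls over all genes went from 1757 to 1245 and 1288. Total count scaling gave 4 rises and 26 falls in the list, and over all genes it gave 1428 higher and 2217 lower in place of 1771 and 1757.

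Prkra (PACT), the other double-stranded RNA-binding partner of Dicer1, rose 2.14-fold. It had 13.9 and 22.9 CPM in siNT and 35.6 and 43.3 CPM in si3m (log2 1.10, SE 0.23, edgeR adjusted p = 0.00180), and it passed in all 14 other settings. The ratio of Prkra to Tarbp2 counts was 1.33 and 3.46 in siNT against 7.19 and 10.0 in si3m. The groups did not overlap, and the low counts of Tarbp2 make each ratio imprecise. This pair was outside the planned ratios, and the rise of Prkra by itself raises the ratio. The share of all gene pairs without overlap was not computed.

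Tnrc6c and Ago4, the remaining family members, did not pass. Tnrc6c, the GW182 protein outside the 10, had 29.4 and 35.1 CPM in siNT and 21.0 and 23.8 CPM in si3m (log2 -0.53, SE 0.20, edgeR adjusted p = 0.0583), and it passed in 5 of 14 other settings. All 3 GW182 genes were thus below the controls in both si3m libraries, as were 31.3% of all tested genes, with Tnrc6a alone past the threshold. The ratio of Tnrc6c to Tnrc6a counts overlapped between groups, at 0.1395 and 0.1712 in siNT against 0.1567 and 0.1838 in si3m. Ago4 had between 3 and 13 fragments in a library and a log2 value of 0.65 (SE 0.69, adjusted p = 0.528).

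Among 14 cofactors of the nuclear step and of export, 2 rose and 1 fell, 21.4% beside 27.8% over all tested genes. The falls numbered 5 with total count scaling and 0 when si3m replicate 1 or 2 was left out. Srsf3, a splicing factor that binds primary microRNA transcripts, rose 1.34-fold (log2 0.42, SE 0.085, edgeR adjusted p = 0.00156). Ran, the GTPase that holds exportins on their cargo, rose 1.20-fold (log2 0.26, SE 0.050). Smad4, a transducer of TGF-beta signals, fell 1.19-fold (log2 -0.25, SE 0.076, adjusted p = 0.0206). The helicase Ddx5, a Microprocessor cofactor, had a log2 value of -0.10 and did not pass (adjusted p = 0.0669). The call of Smad4 was lost without siNT replicate 1, si3m replicate 1 or si3m replicate 2 (adjusted p = 0.144, 0.0632 and 0.120).

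Of 13 tested genes for turnover and tailing of microRNAs, 2 fell and none rose, 15.4% beside 27.8% over all tested genes. Thinning to the shallowest library left 1 fall, and no low-count filter gave 1 rise. With total count scaling 5 fell, 1 fell when si3m replicate 1 or 2 was left out, and 1 rose without siNT replicate 1. Tsnax, which with its partner Tsn forms a nuclease that removes a strand of small RNA duplexes, fell 1.45-fold (log2 -0.54, SE 0.062, edgeR adjusted p = 8.70e-06). Tsn had a log2 value of -0.39 and did not pass (adjusted p = 0.0719). Lin28b, which blocks the maturation of let-7, fell 1.93-fold (log2 -0.95, SE 0.30, adjusted p = 0.0284) on 24 to 31 fragments per library. With counts thinned to the shallowest library it did not pass (log2 -0.77, edgeR adjusted p = 0.104). The call of Lin28b was also lost without siNT replicate 1, si3m replicate 1 or si3m replicate 2 (log2 -0.77, -0.82 and -1.05). Its paralog Lin28a was at 0 in every library, which allows up to 3 fragments, or between 0.691 and 1.56 CPM of the library total (counting error only). Tent2, a cytoplasmic poly(A) polymerase, had a log2 value of -0.24 (adjusted p = 0.0781).

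The deadenylases to which GW182 proteins connect, with their recruiting factors, had 6 falls and no rise among 17 tested genes, beside 13.9% lower and 14.0% higher over all tested genes, and their median log2 fold change was -0.04. Tob1, an antiproliferative protein that recruits CCR4-NOT, went from 178 ± 17.7 to 101 ± 4.99 CPM (SD, n = 2 each), a fall of 1.76-fold (log2 -0.82, SE 0.088, edgeR adjusted p = 4.35e-06). Cnot7, a catalytic subunit of CCR4-NOT, fell 1.47-fold (log2 -0.56, SE 0.11). Btg2, of the same family as Tob1, fell 1.35-fold (log2 -0.43, SE 0.090), and Cnot4, a ubiquitin ligase that joins the complex, fell 1.43-fold (log2 -0.52, SE 0.15). The 11 genes outside these 6 did not pass, though 1 of the 17 rose with no low-count filter. Without si3m replicate 1 only 3 of the 17 fell, and Cnot4 did not pass there (adjusted p = 0.126) or without siNT replicate 2 (0.0644). Rises numbered 1 without siNT replicate 1.

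Among 12 genes of decapping and decay from the 5′ end, 3 fell and none rose, so 25% passed beside 27.8% over all tested genes. Xrn1, the exonuclease that degrades decapped messenger RNA, fell 1.47-fold (log2 -0.56, SE 0.093, edgeR adjusted p = 3.12e-04). Patl1, a scaffold that links deadenylation to decapping, fell 1.68-fold (log2 -0.75, SE 0.14), and Eif4enif1 (4E-T), which binds the cap-binding protein eIF4E, fell 1.75-fold (log2 -0.81, SE 0.26, adjusted p = 0.0271). Lsm1, of the ring that binds shortened tails, had a log2 value of 1.11 (SE 0.41, adjusted p = 0.0550), on counts of 12 and 50 in siNT against 140 and 112 in si3m. Eif4enif1 did not pass with counts thinned to the shallowest library (log2 -0.54, edgeR adjusted p = 0.179). Its call was also lost without si3m replicate 1 or si3m replicate 2 (log2 -0.77 and -0.82). Lsm1 passed as a rise in 7 of 14 other settings. The value of Lsm1 rested on the control chosen, with log2 0.41 without siNT replicate 1 (adjusted p = 0.317) and 2.50 without siNT replicate 2 (1.78e-08).

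Of 15 tested partners and other repressors, 2 rose and 5 fell, beside 14.0% higher and 13.9% lower over all tested genes. Thinning to the shallowest library gave 1 rise and 3 falls, and DESeq2 and total count scaling gave 1 rise each. Pabpc1, the poly(A)-binding protein that GW182 proteins contact, had 1432 and 1429 CPM in siNT and 2076 and 2071 CPM in si3m. It rose 1.45-fold (log2 0.54, SE 0.033, edgeR adjusted p = 7.91e-09), with a spread within groups far smaller than the gap. Gigyf2, which joins the cap-binding repressor 4EHP, fell 1.50-fold (log2 -0.59, SE 0.13), and Snd1, a nuclease found in silencing complexes, fell 1.38-fold (log2 -0.47, SE 0.078). Only 3 of the 15 fell when si3m replicate 1 or 2 was left out, and 1 rose without siNT replicate 1 or si3m replicate 2. In the GRCr8 annotation Ddx5, Cnot4, Eif4enif1, Lsm1, Gigyf2 and Snd1 each overlap a gene with its own row, so their counts are less certain. Ran and Pabpc1 are known to have processed pseudogenes, which makes their counts less certain as well. Such copies elsewhere in the genome were not surveyed here for the other named genes.

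**Figure D4:**
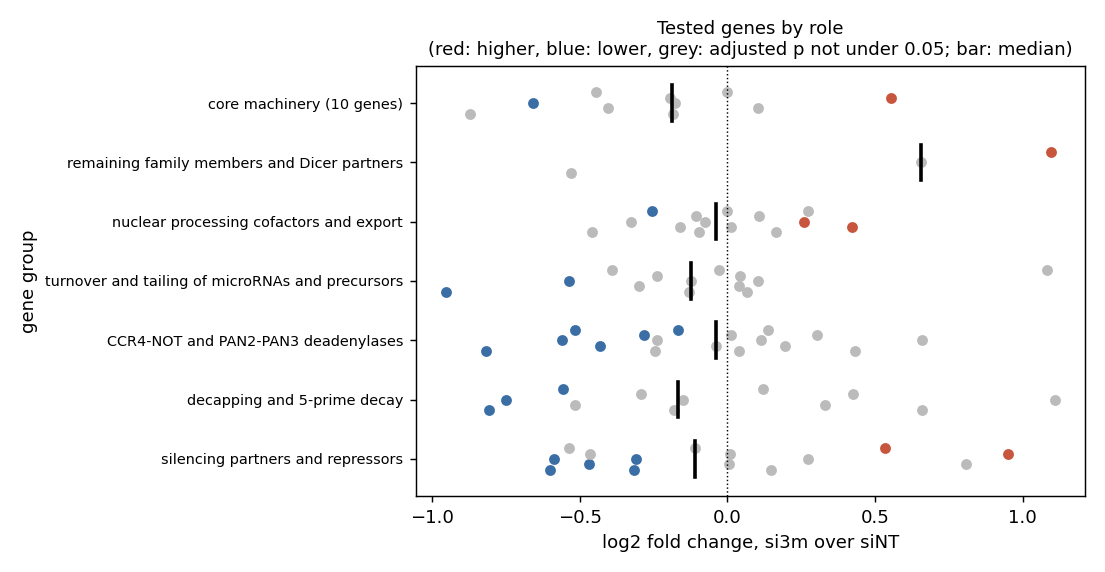
Log2 fold change (si3m over siNT) of the 10 genes and of the 74 tested related genes, by role; each point is a gene, red and blue mark those that passed higher and lower, and the bar is the group median. Of the 10 core genes 1 is red and 1 is blue, and Prkra at 1.10 is the farthest right of the red points.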

How the data were processed

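Ribosome-protected fragments of 4 libraries (siNT and si3m, 2 each) were taken from monosome and polysome fractions, per the labels' protocols. The counts deposited by the authors are raw whole numbers for each gene symbol. Build rn6 and the tools HISAT2 2.2.1, Trimmomatic 0.40, featureCounts, DESeq2 and limma appear in the submitters' processing notes. The sources used here do not give their roles, the annotation, the strand setting or the handling of multi-mapped reads.

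All genes were fitted in edgeR 4.0.16 (R 4.3.3; filterByExpr, minimum count 10; TMM; glmQLFit and glmQLFTest; two-sided; Benjamini-Hochberg). SE is the log2 fold change over the square root of F. CPM use the TMM-scaled total of tested genes. There were 14 alternatives, among them DESeq2 1.42.0. The fit was tested on simulated data with 200 changed genes and 1 spread for all genes (dispersion 0.0109). Real genes differ in spread, so that run gives no error rate for these data. Members and lists were chosen with earlier results of these data known. The related genes named are all tested of the first role and the 4 with the smallest p of each other role. The result of 1 of them is not reported here. Names, overlaps and sequences come from RefSeq GRCr8, which is not the files' build. Coding lengths were not used here, so no level per length is given.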

Additional observations from a re-analysis of the deposited data

How the results depend on the processing

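Over 14 alternative settings Tnrc6a and Prkra kept their direction and their call, and Dgcr8 lost its call only without si3m replicate 1. The number of the 10 genes that rose was 1, or 0 to 1 when leaving out a library. The share of all tested genes that passed, in either direction, also moved with the setting. It was 19.1% with no low-count filter, 24.6% with thinned counts, 28% with RLE size factors and 28.8% with robust quasi-likelihood or total count scaling. It was 29.2% with a replicate block, 32.7% with halved counts and 38.4% with at least 50 counts in 2 libraries, where Tarbp2 was not tested. Beside these shares, the number of the 10 genes that fell was 1 in the reported fit and with DESeq2 or upper quartile scaling. It was 2 with no low-count filter and with counts thinned to the shallowest library, 3 with RLE size factors and robust quasi-likelihood, and 4 with total count scaling, with at least 50 counts in 2 libraries and with counts halved to fragments. It ranged from 1 to 3 when leaving out a library. With the replicate number as a block it was 2, Ago3 passing at an edgeR adjusted p of 0.0388. The numbers share no stated culture, and deviations of same-numbered libraries did not go together (correlation -0.0228 across 12672 genes, which are not independent). Of the related genes, 26 fell with total count scaling, 11 with thinned counts and 9 to 17 when leaving out a library, and 8 rose with no low-count filter. Eif3m kept its log2 value of -1.59 with robust quasi-likelihood at an adjusted p of 0.0522. Xpo5 turned to 0.015 with upper quartile scaling and 0.020 with no low-count filter, and lay between -0.068 and 0.087 when leaving out a library. Drosha lay between -0.354 and 0.020 when leaving out a library. The cause of these shifts was not tested. Where a setting left a group with 1 library, that library was assumed to vary like the other group. Depth limits genes with few fragments, such as Tarbp2 and Ago4.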
